A study of Mus musculus with 4 samples.

Results

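The genes described here code for inhibitors of the cyclin-dependent kinases (CDKs) and for the pocket proteins, taken by symbol from the deposited expression table. They are Cdkn1b, Cdkn1c, Cdkn2a, Cdkn2b, Cdkn2c, Cdkn2d, Cdkn3, Rb1, Rbl1 and Rbl2, which make 10 of the 36445 genes in the table. The data are RNA sequencing of polyadenylated RNA from MC38, an established mouse colon cancer cell line. One group of cultures received 5-fluorouracil (5-FU), a fluoropyrimidine that disturbs thymidylate and RNA synthesis, at 1 mM for 24 h, and the control group received phosphate-buffered saline (PBS) for the same 24 h. Each group had 2 libraries. All came from the same cell line without a stated genetic change, and no label says whether the libraries of a group came from separate cultures, so each p-value below measures only the spread between these libraries, which may be technical.

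CDK inhibitors bind cyclin-dependent kinases or their cyclin complexes and slow the passage from G1 into S phase. The CIP/KIP proteins p21, p27 and p57 bind cyclin E, cyclin A and cyclin D complexes, while the INK4 proteins p16, p15, p18 and p19 bind Cdk4 and Cdk6 themselves. The pocket proteins Rb, p107 and p130 hold E2F transcription factors in check until CDKs phosphorylate them, and p107 and p130 also join the MuvB proteins in the DREAM complex that represses cell cycle genes in resting cells.

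The libraries held an estimated 20.8 and 20.6 M reads in the 5-FU group, against 41.3 and 41.6 M in the PBS group, so depth and treatment cannot be told apart. Between 10981 and 11232 genes reached 1 FPKM (fragments per kilobase of transcript, scaled to sequencing depth) in a library. The label of a colon cancer line was checked with cell type markers. None of 10 epithelial markers reached 1 FPKM in any library, and Epcam, an epithelial adhesion gene, was at 0 in both PBS libraries. Vim, the mesenchymal filament gene vimentin, measured 1069 and 1036 FPKM in the 5-FU libraries and 973 and 890 FPKM in the PBS libraries. The RNA thus carried the cell line's name but not the epithelial markers of colon. The summed level of 9 leukocyte markers was 20.97 and 19.4 FPKM with 5-FU against 8.06 and 22.6 FPKM with PBS, most of it from Cd68, and the T cell gene Cd3e was at 0 in every library. Of 7 endothelial and erythroid markers only Hba-a1 reached 1 FPKM. In bulk RNA of this kind, fewer cells of a type and less RNA per cell cannot be told apart.

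The question of the comparison was which of these cell cycle brakes differed in level after 5-FU. Of the 10 genes, 9 passed the filter of at least 1 FPKM in at least 2 libraries and were tested, and Cdkn1c did not pass it. Of the tested genes, 7 were lower in 5-FU cells, 0 were higher and 2, Cdkn2a and Cdkn3, missed the threshold (limma, Benjamini-Hochberg adjusted p under 0.05 over 11644 genes). Over all tested genes 31.2% were lower and 22.1% were higher, 53.3% in either direction. Of the 7 lower genes, 6 had a log2 difference of -1 or beyond, and 15.7% of all tested genes were called lower by as much. At an unadjusted p under 0.05 the counts were 8 lower and 0 higher. The median log2 difference of the 9 genes was -1.33, against -0.10 over all tested genes. Both 5-FU libraries lay below both PBS libraries for 8 of the 9 tested genes, where 45.1% of all tested genes did so, and 0 of the 9 had both 5-FU libraries above both PBS libraries, where 35.9% of all did. An exact permutation test of 2 against 2 libraries cannot give a two-sided p below 0.333, so the calls rest on the spread that limma shares across genes. With a 5-FU library left out, the spread is taken from the PBS pair, whose libraries were farther apart. Without 5-FU replicate 1 0 of the 9 genes were called, and without 5-FU replicate 2 only Cdkn1b was. Over all tested genes, far fewer were called with a 5-FU library left out and more with a PBS library left out. Counts of called genes from such fits cannot be read apart from that shift.

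**Figure D1:**
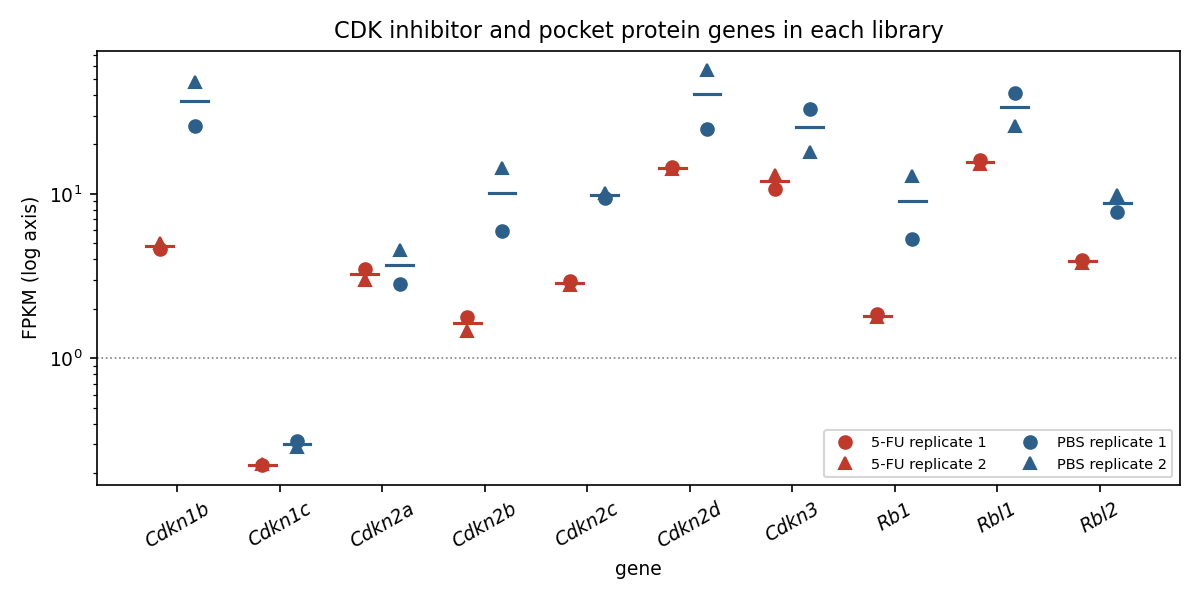
FPKM on a log axis for the 10 genes in each library, with 5-FU libraries in red on the left of each gene and PBS libraries in blue on the right. Circles are replicate 1, triangles replicate 2, horizontal bars the group means, and the dotted line marks 1 FPKM. The red points lie below the blue points for 9 of the 10 genes, Cdkn2a being the exception, and Cdkn1c lies under the dotted line.

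Promoter sequence is shown for the 4 genes whose upstream window held a word of the E2F motif, or more than 1 CCAAT word. The E2F motif is among those that pocket protein complexes are known to use, and CCAAT is bound by the factor NF-Y. This choice of windows does not cover every motif searched. RefSeq windows on GRCm38.p6 were available for 8 of the 10 genes, in 10 entries. The 250 bases before each start were searched on both strands. Rb1 and Cdkn1c had no window and were not searched for any motif. The E2F words were TTTCCCGC, TTTCGCGC, TTTGCCGC and TTTGGCGC, present in 1.86% of 32851 windows of the same length. The cell cycle homology region (CHR) word was TTTGAA, present in 15.99%, and CCAAT was present in 33.85%. The GC box word GGGCGG was present in 32.74%. Capitals mark matches to the E2F, CHR and CCAAT words or to their reverse complements, none of which overlap here. Each sequence is written 5′ to 3′ on the gene's strand, and a match describes letters only. The Rbl1 window is chr2:157204535-157204784 on the minus strand. The window of the first Cdkn2a start is chr4:89294654-89294869 on the minus strand, given as 216 bases because the last 34 lie inside the annotated gene. The Cdkn3 window is chr14:46760291-46760540 and the Cdkn1b window chr6:134920151-134920400, both on the plus strand.
Rbl1: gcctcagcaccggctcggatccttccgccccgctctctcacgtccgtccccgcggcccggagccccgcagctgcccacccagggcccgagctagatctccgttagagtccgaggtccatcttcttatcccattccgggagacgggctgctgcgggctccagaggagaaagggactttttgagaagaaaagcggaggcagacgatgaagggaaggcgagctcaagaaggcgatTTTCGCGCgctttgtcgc
Cdkn2a: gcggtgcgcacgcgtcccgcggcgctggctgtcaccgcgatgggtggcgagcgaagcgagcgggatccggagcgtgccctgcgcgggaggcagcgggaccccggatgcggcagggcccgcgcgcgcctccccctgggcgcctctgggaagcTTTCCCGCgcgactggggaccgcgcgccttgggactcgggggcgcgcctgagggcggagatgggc
Cdkn3: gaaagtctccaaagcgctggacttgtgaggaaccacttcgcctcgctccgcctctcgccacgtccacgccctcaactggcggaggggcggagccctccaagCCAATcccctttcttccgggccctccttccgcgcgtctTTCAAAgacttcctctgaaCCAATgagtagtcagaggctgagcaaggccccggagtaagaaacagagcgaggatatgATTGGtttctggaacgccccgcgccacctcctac
Cdkn1b: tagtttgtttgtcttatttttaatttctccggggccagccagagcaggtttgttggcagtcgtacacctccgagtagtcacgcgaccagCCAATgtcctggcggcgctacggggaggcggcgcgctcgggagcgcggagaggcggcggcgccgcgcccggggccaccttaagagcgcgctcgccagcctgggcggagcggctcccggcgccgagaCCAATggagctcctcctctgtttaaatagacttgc
Counted from the start, Rbl1 held 1 E2F word at position -18 and the first Cdkn2a start held 1 at -99. Cdkn3 held CHR at position -111 with CCAAT words, read on either strand, at -149, -92 and -34. Cdkn1b held CCAAT words at -161 and -35 and no E2F or CHR word. Of the genes not printed, Cdkn2b and Rbl2 held 1 CHR word each, at -161 and -201, and Cdkn2d held 1 CCAAT word at -220. The FOXO word GTAAACA, in 3.166% of all windows, was in none of these windows. The GC box was in those of Rbl1, Cdkn2a, Cdkn2c, Cdkn2d, Cdkn1b and Cdkn3. The GC boxes of Cdkn2d all lie in the last 198 bases of its window, which are inside the annotated gene. The Cdkn2c window with GC boxes, chr4:109666757-109667006, lies wholly inside the annotated gene. Among the 8 genes searched, the E2F motif thus stood in 1 that was lower after 5-FU (Rbl1). It also stood at 1 start of a gene that did not pass the test (Cdkn2a). Rb1, which was lower too, was not searched. The window of the other Cdkn2a start, chr4:89282193-89282442, held none of the words searched. Which start serves p16 was not assigned here.

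Of the CIP/KIP inhibitors, Cdkn1b, which codes for p27, and Cdkn1a both fell, with mean FPKM 7.67-fold and 1.73-fold lower; the difference between these folds was not tested. Cdkn1b (chromosome 6, 134920401 to 134925513, plus strand) measured 4.63 and 5.00 FPKM in the 5-FU libraries, against 26.1 and 47.8 FPKM in the PBS libraries. The 5-FU libraries lay close together and under both PBS libraries, of which replicate 2 was the higher. The means were 4.81 ± 0.258 FPKM with 5-FU and 36.9 ± 15.3 FPKM with PBS (SD, n = 2 each), and the ranges did not overlap. On the log2(FPKM + 1) scale, which understates changes of low genes, the difference was -2.64 ± 0.30 (SE, 95% interval -3.44 to -1.85, adjusted p = 0.0045 by limma). Only 0.429% of tested genes had a lower log2 difference. Cdkn1b lost its call only without 5-FU replicate 1 (adjusted p = 0.0508 by limma). Its estimated read counts were 439 and 469 with 5-FU and 4907 and 9045 with PBS, so counting error was small beside the gap between groups.

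Cdkn1a codes for p21, the p53-induced inhibitor, and gives the other measured CIP/KIP level. Its values were 53.5 and 48.8 FPKM with 5-FU against 75.2 and 102.0 FPKM with PBS (log2 difference -0.77 ± 0.18, adjusted p = 0.0229 by limma). The call was lost with no filter on low values (adjusted p = 0.0730 by limma), without 5-FU replicate 1 (adjusted p = 0.126 by limma) and without 5-FU replicate 2 (adjusted p = 0.168 by limma). In every library the Cdkn1a level was the higher of the pair: Cdkn1b FPKM divided by Cdkn1a FPKM was 0.0866 and 0.102 with 5-FU, against 0.347 and 0.468 with PBS.

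Cdkn1c codes for p57, an imprinted inhibitor best known from embryonic growth. Cdkn1c (chromosome 7, 143458339 to 143461050, minus strand) measured 0.224 and 0.226 FPKM with 5-FU against 0.313 and 0.286 FPKM with PBS. All values were under 1 FPKM, and the 5-FU libraries were below the PBS libraries by a small margin. The estimated reads were 10 in each 5-FU library, against 26 and 24 in the PBS libraries. A level of 3 reads corresponds to 0.0707 and 0.0713 FPKM in the 5-FU libraries and to 0.0356 and 0.0354 FPKM in the PBS libraries. In a fit with no filter on low values the log2 difference was -0.09 ± 0.04 (adjusted p = 0.189 by limma over 23640 genes). The gene Gm44732 on the opposite strand covers 30.65% of the exonic bases of Cdkn1c, and the strand setting of the counting is not given, so these reads cannot be assigned to either gene with certainty.

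Of the 4 INK4 genes, Cdkn2b, Cdkn2c and Cdkn2d fell, and Cdkn2a did not pass the test. Cdkn2b codes for p15, the INK4 protein induced by TGF-beta. Cdkn2b (chromosome 4, 89306299 to 89311039, minus strand) measured 1.79 and 1.46 FPKM with 5-FU against 5.97 and 14.4 FPKM with PBS. The groups did not overlap, and PBS replicate 2 was 2.41-fold above PBS replicate 1. The mean was 1.63 ± 0.234 FPKM with 5-FU and 10.2 ± 5.97 FPKM with PBS (SD, n = 2 each), 6.27-fold lower, with a log2 difference of -1.98 ± 0.40 (adjusted p = 0.0157 by limma). The estimated reads were 52 and 42 with 5-FU and 343 and 834 with PBS. The call was lost with no filter on low values (adjusted p = 0.0681 by limma) and when either 5-FU library was left out.

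Cdkn2a lies beside Cdkn2b, with 11645 bases between the annotated genes, and codes for p16 and, from its other start, for the p53 pathway protein Arf. The table gives 1 level for the gene, so transcripts of the 2 starts are not separated. Cdkn2a (chromosome 4, 89274471 to 89294653, minus strand) measured 3.49 and 2.98 FPKM with 5-FU against 2.83 and 4.58 FPKM with PBS. The groups overlapped, as both 5-FU libraries lay between the PBS libraries. The means were 3.24 ± 0.357 FPKM with 5-FU and 3.71 ± 1.24 FPKM with PBS (SD, n = 2 each), with a log2 difference of -0.13 ± 0.23 (95% interval -0.72 to 0.47, adjusted p = 0.652 by limma). The sign turned to 0.22 with quantile normalization (adjusted p = 0.471 by limma) and to 0.14 without PBS replicate 2 (adjusted p = 0.294 by limma), while without PBS replicate 1 it was -0.40 (adjusted p = 0.0171 by limma). The ratio of Cdkn2b FPKM to Cdkn2a FPKM was 0.514 and 0.490 with 5-FU, against 2.11 and 3.15 with PBS, so Cdkn2a was the higher of these neighbours in both 5-FU libraries and Cdkn2b in both PBS libraries.

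Cdkn2c codes for p18 and had the tightest replicates of all 9 tested genes in the PBS group. Cdkn2c (chromosome 4, 109660876 to 109667189, minus strand) measured 2.95 and 2.78 FPKM with 5-FU against 9.50 and 10.1 FPKM with PBS. Within each group the libraries nearly coincided, and the groups stood well apart. The means were 2.86 ± 0.1198 FPKM with 5-FU and 9.79 ± 0.411 FPKM with PBS (SD, n = 2 each), 3.42-fold lower, and the log2 difference was -1.48 ± 0.13 (adjusted p = 0.00316 by limma). The call was lost without 5-FU replicate 1 (adjusted p = 0.0632 by limma) and without 5-FU replicate 2 (adjusted p = 0.0671 by limma).

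Cdkn2d codes for p19, the INK4 protein distinct from Arf, and was the most abundant INK4 gene by FPKM in every library. Cdkn2d (chromosome 9, 21288410 to 21291407, minus strand) measured 14.7 and 14.2 FPKM with 5-FU against 25.0 and 56.5 FPKM with PBS. Both 5-FU libraries were lower, and the PBS libraries were 2.26-fold apart. The means were 14.4 ± 0.329 FPKM with 5-FU and 40.7 ± 22.2 FPKM with PBS (SD, n = 2 each), 2.82-fold lower, and the log2 difference was -1.33 ± 0.39 (adjusted p = 0.0429 by limma). This call did not survive median-ratio scaling (adjusted p = 0.0579 by limma), quantile normalization (adjusted p = 0.0622 by limma), the absence of a filter or the removal of either 5-FU library.

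Cdkn3 codes for a phosphatase that acts on Cdk2 and is highest in cycling cells. Cdkn3 (chromosome 14, 46760541 to 46771669, plus strand) measured 10.7 and 13.1 FPKM with 5-FU against 33.1 and 18.1 FPKM with PBS. The groups did not overlap, but here PBS replicate 1 was the higher, 1.83-fold above PBS replicate 2. The means were 11.9 ± 1.67 FPKM with 5-FU and 25.6 ± 10.6 FPKM with PBS (SD, n = 2 each), with a log2 difference of -0.99 ± 0.31 (95% interval -1.80 to -0.17). The adjusted p was 0.0504 by limma, just short of the threshold, and 6 of 15 alternative settings put it past the threshold in the same direction.

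All 3 pocket protein genes fell. Rb1 codes for the retinoblastoma protein Rb, which binds the activating E2F factors. Rb1 (chromosome 14, 73183673 to 73325822, minus strand) measured 1.85 and 1.77 FPKM with 5-FU against 5.34 and 12.8 FPKM with PBS. Both 5-FU libraries were lower than either PBS library, and the PBS libraries were 2.402-fold apart. The means were 1.81 ± 0.0555 FPKM with 5-FU and 9.09 ± 5.30 FPKM with PBS (SD, n = 2 each), 5.02-fold lower, and the log2 difference was -1.74 ± 0.39 (adjusted p = 0.0209 by limma). Exons on the opposite strand from Rcbtb2 and Lpar6 cover 8.11% and 6.78% of the exonic bases of Rb1. Lpar6 measured 0.564 and 0.550 FPKM with 5-FU and 2.89 and 0.944 FPKM with PBS, and Rcbtb2 measured 2.47 and 2.42 FPKM with 5-FU and 2.42 and 1.80 FPKM with PBS. Their part in the Rb1 value was not tested.

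Rbl1 codes for p107, the pocket protein that is itself induced by E2F as cells enter S phase. Rbl1 (chromosome 2, 157145893 to 157204534, minus strand) measured 16.0 and 15.2 FPKM with 5-FU against 41.4 and 26.0 FPKM with PBS. The 5-FU libraries were both lower, and PBS replicate 1 was 1.59-fold above PBS replicate 2. The means were 15.6 ± 0.597 FPKM with 5-FU and 33.7 ± 10.9 FPKM with PBS (SD, n = 2 each), 2.16-fold lower, and the log2 difference was -1.03 ± 0.24 (adjusted p = 0.0229 by limma).

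Rbl2 codes for p130, the pocket protein that predominates in resting cells. Rbl2 (chromosome 8, 91070057 to 91123844, plus strand) measured 3.96 and 3.804 FPKM with 5-FU against 7.74 and 9.88 FPKM with PBS. The groups did not overlap, and the PBS libraries were 1.28-fold apart, a gap larger than that of 56.4% of tested genes. The means were 3.88 ± 0.109 FPKM with 5-FU and 8.81 ± 1.51 FPKM with PBS (SD, n = 2 each), 2.27-fold lower, and the log2 difference was -0.999 ± 0.162 (adjusted p = 0.00889 by limma). Exons on the opposite strand, from Aktip and Gm45464, cover 9.17% and 11.8% of its exonic bases. Aktip measured 10.7 and 11.0 FPKM with 5-FU and 9.91 and 14.1 FPKM with PBS, and its part in the Rbl2 value was not tested.

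The pocket protein genes are the longest of the set, with annotated spans of 142150 bases for Rb1, 58642 for Rbl1 and 53788 for Rbl2. Of protein-coding genes spanning at least 50000 bases, 49.4% were lower in 5-FU cells, with a median log2 difference of -0.52. Of those spanning under 25000 bases, which include all the inhibitor genes and Cdkn3, 25.0% were lower, with a median of 0.06. With the trend over gene span removed, an alternative chosen after the data were seen, Rb1 was -1.16 (adjusted p = 0.0652 by limma), Rbl1 was -0.67 (adjusted p = 0.0752 by limma) and Rbl2 was -0.67 (adjusted p = 0.0268 by limma). Rbl2 thus kept its call and Rb1 and Rbl1 lost theirs, with the same direction. Both Rb1 and Rbl1 also lost their calls with no filter on low values (adjusted p = 0.0827 and 0.0798 by limma), and all 3 lost them when either 5-FU library was left out.

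**Figure D2:**
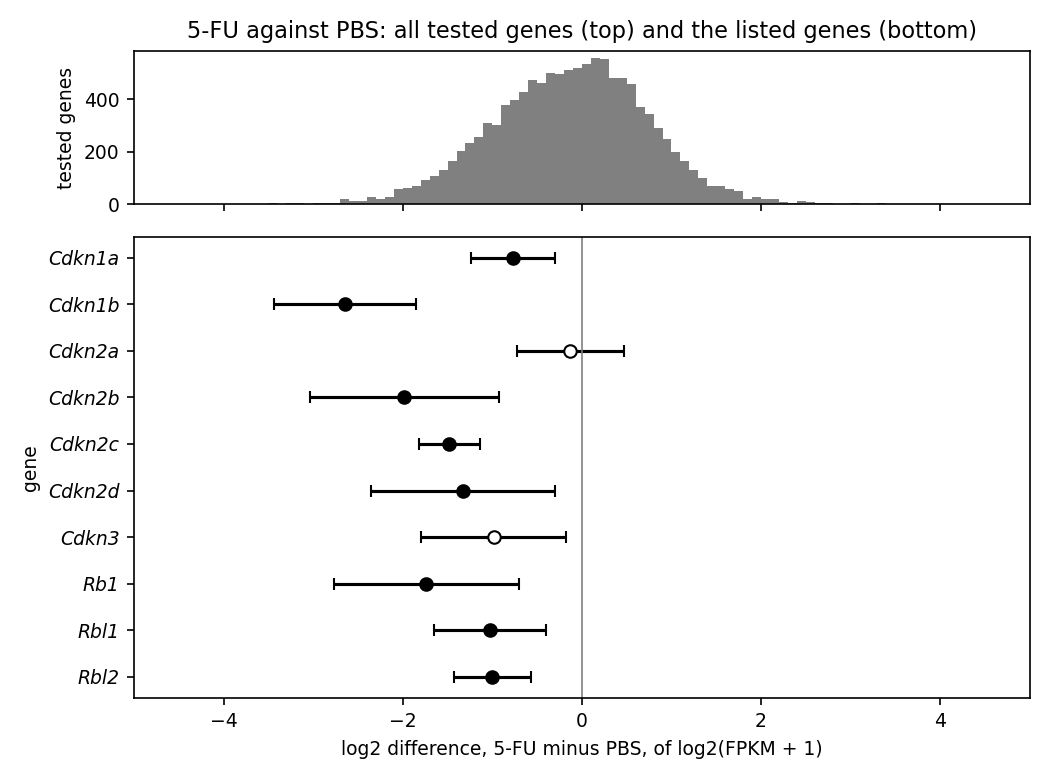
The upper panel is a histogram of the log2 differences (5-FU minus PBS, log2(FPKM + 1) scale) of the 11644 tested genes. The lower panel gives the difference and its 95% interval for the 9 tested genes and Cdkn1a on the same axis, filled where the adjusted p was under 0.05 and open where it was not. Every point lies left of 0, with Cdkn1b farthest at -2.64 and Cdkn2a nearest at -0.13.

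The levels within each family were compared per library by summed FPKM, which is scaled to transcript length. The INK4 genes summed to 22.9 and 21.4 FPKM with 5-FU against 43.3 and 85.5 FPKM with PBS. Cdkn2d made 64.0% and 66.3% of this with 5-FU and 57.8% and 66.0% with PBS, while Cdkn2a made 15.2% and 13.9% with 5-FU against 6.54% and 5.35% with PBS. The larger part of the family was therefore Cdkn2d in all 4 libraries, and the Cdkn2a share was higher in both 5-FU libraries. Divided by the summed FPKM of Cdk4 and Cdk6, the kinases that INK4 proteins bind, the INK4 sum was 0.150 and 0.140 with 5-FU against 0.298 and 0.659 with PBS. This sum includes the Cdkn2a level, which does not separate p16 transcripts from those of Arf.

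The pocket protein genes summed to 21.8 and 20.8 FPKM with 5-FU against 54.5 and 48.7 FPKM with PBS. Rbl1 made 73.4% and 73.1% of the sum with 5-FU and 76.0% and 53.4% with PBS. The Rb1 share was 8.48% and 8.54% with 5-FU against 9.81% and 26.3% with PBS, so PBS replicate 2 stood apart from the other 3 libraries in this makeup. The CIP/KIP genes, Cdkn1a included, summed to 58.3 and 54.0 FPKM with 5-FU against 101.6 and 150.1 FPKM with PBS.

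**Figure D3:**
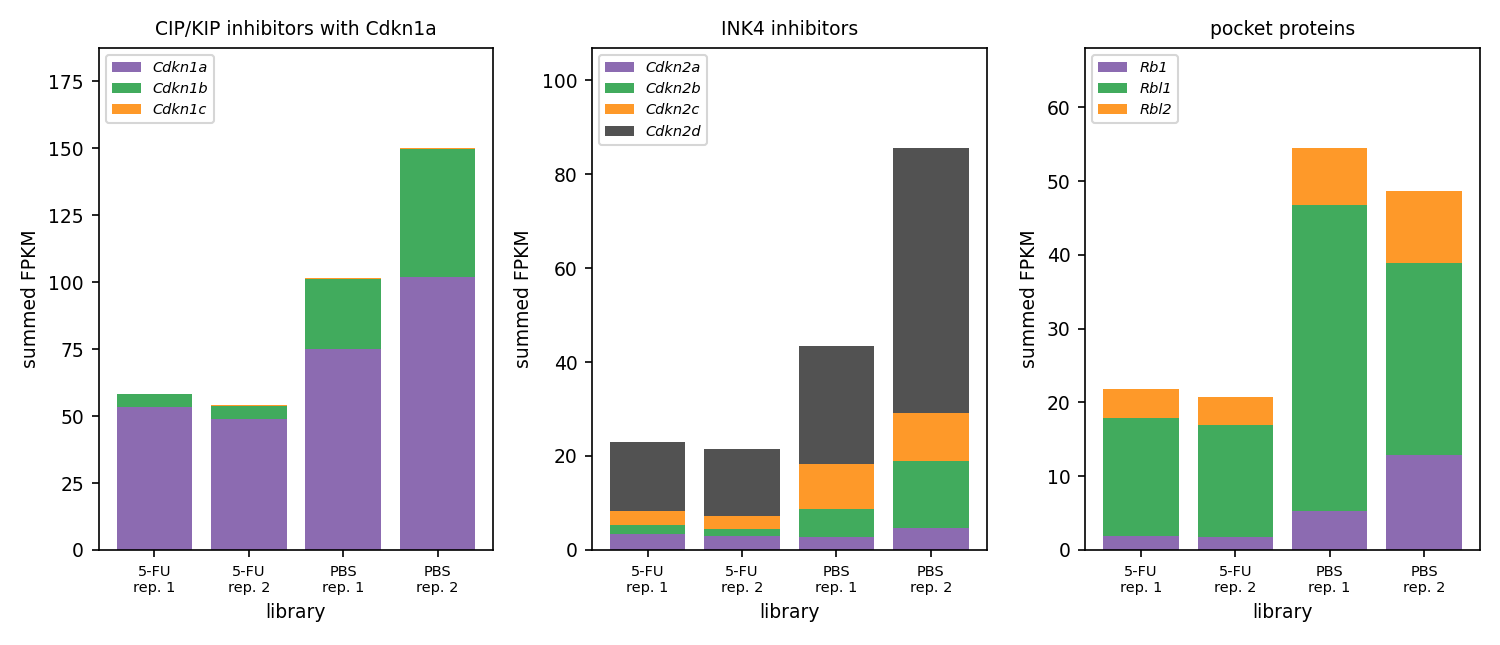
Stacked bars of summed FPKM per library for the CIP/KIP genes with Cdkn1a, the INK4 genes and the pocket protein genes, with 5-FU libraries on the left of each panel. Both 5-FU bars are shorter than both PBS bars in all 3 panels, and PBS replicate 2 exceeds PBS replicate 1 in the INK4 panel (85.5 against 43.3 FPKM).

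The spread between replicates was uneven. For all 10 genes the fold between the PBS libraries was larger than that between the 5-FU libraries, though for Cdkn2c the folds were nearly equal. In PBS replicate 2, 7 of the 10 were higher than in PBS replicate 1. The shares of all tested genes that did so were not counted. The median absolute gap on the log2(FPKM + 1) scale was 0.0734 between the 5-FU libraries for the 9 tested genes, against 0.0729 over all tested genes. Between the PBS libraries it was 0.839 for the 9 genes, against 0.271 over all tested genes. The gap between the PBS libraries was larger than that of 97.9% of tested genes for Cdkn2b and Cdkn2d, 97.7% for Rb1, 93.7% for Cdkn1b and 93.4% for Cdkn3. For Cdkn2c it exceeded only 16.1%. Even against the lower PBS library, the higher 5-FU library was 5.22-fold lower for Cdkn1b, 3.33-fold for Cdkn2b, 3.22-fold for Cdkn2c and 2.89-fold for Rb1. For Rbl2, Cdkn2d, Rbl1 and Cdkn3 this smallest gap was 1.96-fold, 1.71-fold, 1.62-fold and 1.38-fold.

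**Figure D4:**
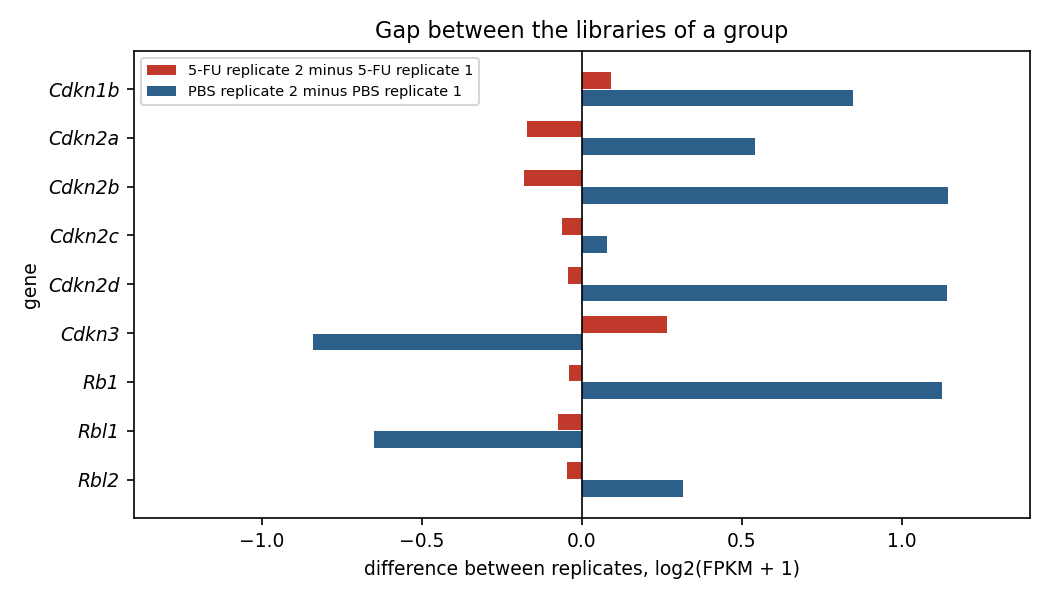
Difference between replicate 2 and replicate 1 on the log2(FPKM + 1) scale for the 9 tested genes, in red for the 5-FU libraries and in blue for the PBS libraries. The blue bar is the longer for 8 of the 9 genes by a wide margin and barely so for Cdkn2c, and it points left for Cdkn3 and Rbl1, which were higher in PBS replicate 1.

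The genes whose profile over the 4 libraries was most like that of Cdkn1b were Ninj1, Zyg11b and Zbtb18. Their root mean square distances from it, over centred log2(FPKM + 1) values, were 0.0607, 0.0796 and 0.0828. Ninj1 measured 0.959 and 1.20 FPKM with 5-FU against 7.88 and 15.3 FPKM with PBS. All 3 were low in both 5-FU libraries and highest in PBS replicate 2.

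Genes that act with the inhibitors and pocket proteins were described from 8 lists, some sharing genes. With either 5-FU library left out, 0 of the listed genes rose and 2 fell. The share of all tested genes against which each list is read was 22.1% higher and 31.2% lower. The first list held the cyclins and kinases of G1 and S phase, with Cdk1 and the CDK activators Cdk7, Ccnh, Mnat1 and Cdc25a. In it 6 of 14 tested genes rose (Ccne1, Ccne2, Ccnd3, Ccna2, Cdk1 and Cdk7), 1 fell and 7 did not pass, with a median log2 difference of 0.35 against -0.10 over all tested genes. Without PBS replicate 1 the counts were 11 and 2, and without PBS replicate 2 they were 8 and 3. With no filter on low values they were 2 and 0, and the 3 genes described next lost their calls (adjusted p = 0.0535 to 0.0820 by limma). Ccne2, which codes for cyclin E2, measured 42.4 and 48.4 FPKM with 5-FU against 27.04 and 16.8 FPKM with PBS (log2 difference 1.05, adjusted p = 0.0232 by limma). Ccne1, for cyclin E1, measured 15.2 and 14.8 FPKM with 5-FU against 9.69 and 6.82 FPKM with PBS (0.81, adjusted p = 0.0229 by limma). Both cyclin E genes were thus higher in each 5-FU library than in either PBS library. Ccnd2, for cyclin D2, was the 1 that fell, at 21.6 and 22.8 FPKM with 5-FU against 46.0 and 34.7 FPKM with PBS (-0.82, adjusted p = 0.0159 by limma).

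Of the 7 E2F and DP genes, whose proteins the pocket proteins bind, 0 rose and 3 fell, with a median of -0.62. With no filter on low values 1 fell, Tfdp1 losing its call (adjusted p = 0.0844 by limma), and with the trend over gene span removed 1 rose and 2 fell. At an unadjusted p under 0.05 by limma, 0 rose and 4 fell, and without PBS replicate 1 the calls were 2 higher and 4 lower. E2f1, an activating E2F, measured 17.6 and 16.8 FPKM with 5-FU against 45.7 and 36.3 FPKM with PBS (log2 difference -1.20, adjusted p = 0.00514 by limma). Tfdp1, the DP1 partner, averaged 43.6 FPKM with 5-FU and 96.3 FPKM with PBS (-1.08, adjusted p = 0.0235 by limma). The next list held the 5 MuvB core genes, the B-Myb gene Mybl2, Foxm1 and the kinase gene Dyrk1a. Of these 8, 4 rose, all of them MuvB core genes (Lin9, Lin37, Lin52 and Rbbp4), and 2 fell, with a median of 0.41. Lin9, a MuvB subunit, measured 26.1 and 28.9 FPKM with 5-FU against 8.51 and 7.66 FPKM with PBS (1.65, adjusted p = 0.00278 by limma). Lin52, the subunit whose phosphorylation allows DREAM to form, rose by 0.96 (adjusted p = 0.0101 by limma). Dyrk1a, the kinase that phosphorylates it, was lower at -0.62 (adjusted p = 0.0241 by limma), and the subunit gene Lin54 at -0.51 (adjusted p = 0.0287 by limma). The number lower in this list was 2 in the main test, 1 with median-ratio scaling, 0 with quantile normalization and 4 without PBS replicate 2. With the trend over gene span removed it was 0, Dyrk1a being -0.07 (adjusted p = 0.699 by limma) and Lin54 -0.15 (adjusted p = 0.359 by limma), and with no filter on low values it was 1.

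Of 12 genes for the turnover and transcription of p27, 3 rose, 4 fell and 5 did not pass, with a median of -0.29, so both counts were close to the shares over all tested genes (22.1% higher and 31.2% lower). Only 1 rose when low genes were not filtered, and Skp2 and Skp1a then lost their calls (adjusted p = 0.0700 and 0.0542 by limma). Without PBS replicate 2 the number that fell was 7. Skp2, the F-box protein that marks p27 for degradation, measured 29.2 and 31.7 FPKM with 5-FU against 18.1 and 11.7 FPKM with PBS (log2 difference 1.01, adjusted p = 0.0196 by limma). Foxo3, a transcription factor known to activate Cdkn1b, measured 2.85 and 2.80 FPKM with 5-FU against 8.81 and 13.9 FPKM with PBS (-1.66, adjusted p = 0.00643 by limma). The Skp2 values thus lay above and the Foxo3 values below those of the PBS libraries. Skp1a, a partner of Skp2 in its ligase, rose by 0.65 (adjusted p = 0.0183 by limma) but by 0.40 with quantile normalization (adjusted p = 0.0684 by limma). Fzr1, an activator of the anaphase-promoting complex that targets Skp2, was lower at -1.36 (adjusted p = 0.00469 by limma). The other called genes of the list were Cops5, higher by 0.63, and Ubac1 and Foxo1, lower at -0.72 and -1.13. All of these are RNA levels, and p27 protein was not measured.

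Of the 20 regulators of the Ink4 locus, 19 were tested, of which 3 rose, 9 fell and 7 did not pass, with a median of -0.42. Leaving out PBS replicate 1 gave 6 that rose, and leaving out PBS replicate 2, or removing the trend over gene span, gave 5. Smad3, which carries TGF-beta signals to the Cdkn2b promoter, measured 0.910 and 0.971 FPKM with 5-FU against 8.18 and 7.68 FPKM with PBS (log2 difference -2.20, adjusted p = 0.0027 by limma). Smad4, its common partner, was lower at -1.003 (adjusted p = 0.0052 by limma), whereas Smad2, the related receptor-activated gene, rose by 0.58 (adjusted p = 0.0122 by limma). Phc2, a Polycomb subunit, rose by 0.98 (adjusted p = 0.00999 by limma), and the Polycomb gene Eed rose by 0.52 (adjusted p = 0.0169 by limma). Most other Polycomb genes of the list went the other way. Ezh2, Suz12, Bmi1, Cbx7, Cbx8 and Ring1 were called lower, at -0.64, -0.90, -0.57, -0.65, -0.96 and -1.20. Rnf2 and Phc1 did not pass. Of the 17 RB corepressors and binding partners, 4 rose, 5 fell and 8 did not pass, with a median of -0.01, again close to the 22.1% higher and 31.2% lower of all tested genes. With no filter on low values 3 fell. Without PBS replicate 1, 8 rose, and without PBS replicate 2, 8 fell. Rbbp5 and Rbbp6 rose by 1.24 and 1.21 (adjusted p = 0.00368 and 0.0113 by limma). Smarca2, the chromatin remodelling ATPase BRM, was lower at -1.53 (adjusted p = 0.00287 by limma). Ppp1cb, a catalytic subunit of the phosphatase that dephosphorylates Rb, was lower at -1.30 (adjusted p = 0.00368 by limma). The other catalytic subunit genes of the list lay higher. Ppp1cc rose by 0.48 (adjusted p = 0.0462 by limma). Ppp1ca averaged 428 FPKM with 5-FU and 328 FPKM with PBS but did not pass (0.39, adjusted p = 0.0541 by limma).

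Of the 20 E2F target genes of S phase, 8 rose, 1 fell and 11 did not pass, with a median of 0.30. E2f7, a repressing E2F that is itself an E2F target, measured 14.2 and 14.4 FPKM with 5-FU against 6.61 and 3.58 FPKM with PBS (log2 difference 1.37, adjusted p = 0.0144 by limma), and the gene that fell was E2f1. All 20 genes were lower in PBS replicate 2 than in PBS replicate 1, with a median gap of -0.54 on the log2(FPKM + 1) scale. PBS replicate 2 was also the library with the higher levels of Cdkn1b, Cdkn2b, Cdkn2d and Rb1. Without PBS replicate 2, 9 of the S phase genes rose and 9 fell; leaving out PBS replicate 1 instead gave 14 higher and 3 lower. With quantile normalization 5 of the 20 rose and 2 fell, and with no filter on low values 0 rose, E2f7 losing its call (adjusted p = 0.0590 by limma).

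Of the 20 DREAM target genes of G2 and M phase, 3 rose, 8 fell and 9 did not pass, with a median of -0.20. Without PBS replicate 1, 6 rose. Ccnb2, which codes for cyclin B2, measured 13.3 and 13.9 FPKM with 5-FU against 63.7 and 70.1 FPKM with PBS (log2 difference -2.22, adjusted p = 0.0027 by limma). Kif11, a spindle motor, was lower at -1.05 (adjusted p = 0.00554 by limma). Aurka, a mitotic kinase, measured 144.7 and 137.5 FPKM with 5-FU against 76.5 and 83.4 FPKM with PBS (0.81, adjusted p = 0.00572 by limma). Cdk1, the mitotic kinase of cyclin B, rose by 0.75 (adjusted p = 0.00601 by limma). The genes of this list thus moved in both directions, with cyclin B2 far below and its kinase above the PBS level. Ccnb1, for cyclin B1, did not pass, at 36.7 and 37.8 FPKM with 5-FU against 42.9 and 40.7 FPKM with PBS (-0.16, adjusted p = 0.240 by limma).

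**Figure D5:**
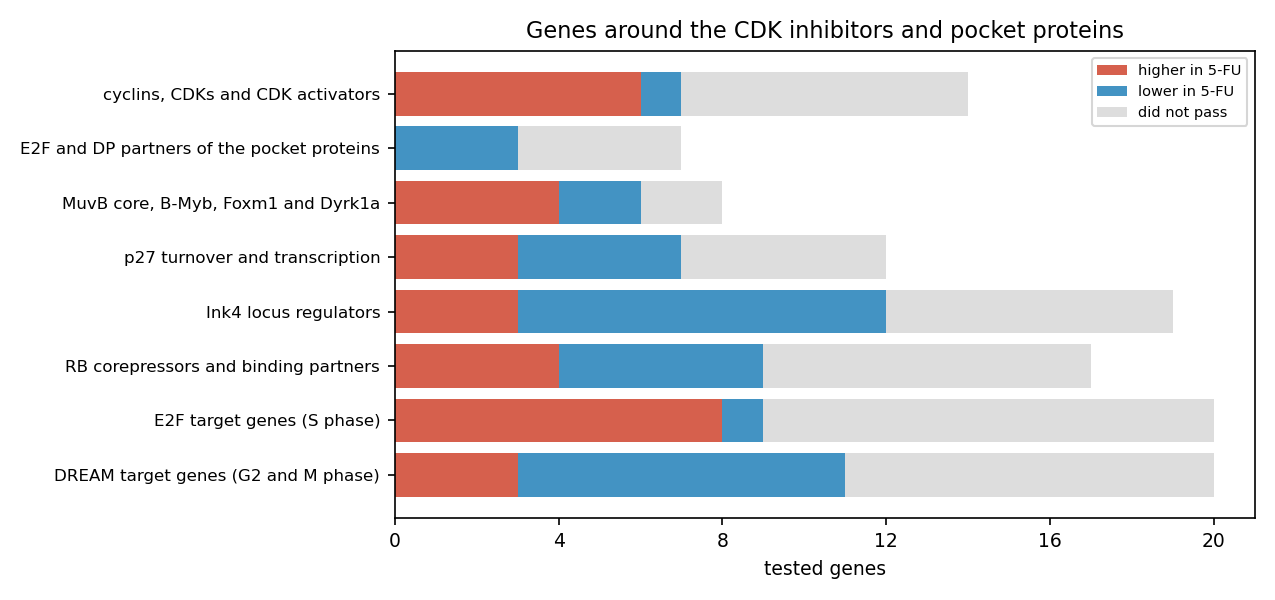
Number of tested genes in each of 8 lists that were higher in 5-FU cells (red), lower (blue) or did not pass at an adjusted p under 0.05 (grey). The E2F and DP list has no red part, and the S phase E2F target list has 8 genes in red and 1 in blue.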

How the data were processed

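A single table with the FPKM of 36445 genes in 4 libraries was deposited by the authors. FPKM divides the fragments of a gene by its transcript length and by the depth of the library. Per the labels' protocols, total RNA was extracted with TRIzol and libraries were made from polyadenylated RNA. Build GRCm38 and the programs Picard 2.9.0 and STAR 2.4.1a are listed, without roles, in the submitters' processing notes. The read counter, its annotation and its strand setting were not given in the sources used here. Gene IDs were matched to GENCODE M21, where 36295 were found and 150 were not. Coordinates are from that annotation, and 26 symbols shown as dates were restored. Samples were grouped by the treatment in their labels.

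Depth was estimated from the steps of low FPKM values: 63.1% to 65.2% of values under 100 reads came within 0.02 of a whole read, too few for a count test, so reads given are estimates. Genes reaching 1 FPKM in 2 or more libraries were tested on log2(FPKM + 1) with limma 3.58.1 in R 4.3.3 (eBayes with trend), with Benjamini-Hochberg adjustment over 11644 genes and a threshold of 0.05. Folds are ratios of mean FPKM. The genes and lists were chosen with earlier results of these data known. From each list the text names up to 2 genes per direction with the largest called log2 difference, groups that do not overlap and a higher group averaging 5 FPKM or more. A few other genes of a list are named beside them, as related genes or as members of a count. Alternatives were other pseudocounts, filters, scalings and eBayes settings, a replicate block, leaving out each library and, added after the data were seen, removal of the trend over gene span.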

Additional observations from a re-analysis of the deposited data

How the results depend on the processing

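With 2 libraries per group the calls rest on the pooled spread. Of the 9 tested genes 7 were lower in the main test, 6 to 8 under the other settings with all libraries except with no filter on low values, which gave 3 of 10, and 0 to 9 when 1 library was left out; 0 were higher under any of the 15 settings. Over all genes, 2578 were higher and 3628 lower, with ranges of 259 to 4385 and 237 to 5249 when 1 library was left out, and 2158 were lower with a mean of at least 5 FPKM required. Over the 8 lists 28 genes were higher and 32 lower, with 14 higher without a filter, and ranges of 0 to 53 and 2 to 55 when 1 library was left out. Leaving out a 5-FU library leaves the spread to the wider PBS pair. Median-ratio scaling gave 3081 higher and 3283 lower, quantile normalization 2946 and 2825, leaving out mitochondrial and ribosomal protein genes 2026 and 3968, and removal of the trend over gene span 2784 and 2815. The median of all genes moved between -0.20 and 0.02 under these, and Cdkn1b stayed between -2.55 and -2.53 relative to it under the scalings. Cdkn2a reversed to 0.22 with quantile normalization and to 0.14 without PBS replicate 2, against -0.40 without PBS replicate 1, and the cause was not tested.

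The labels do not say whether the replicate numbers pair the libraries. The gaps between replicates 2 and 1 in the 5-FU and PBS groups correlated at r = -0.010 across 11644 genes. With 1 gap per group this value cannot tell paired from unpaired libraries. With the replicate block, 8 of the 9 genes were lower, Cdkn3 being added, and 2484 genes were higher and 3553 lower.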
